A study of Mus musculus with 20 samples.

Results

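The 37 genes described here encode 20 collagen chains and 17 proteins that modify, fold, trim, bind or cross-link collagen. They were chosen by mouse gene symbol and found by their NCBI Gene number, and all 37 were listed among the 19311 genes of 1 set of libraries and the 24454 genes of another. RNA-seq of mouse breast cancer cells from the MMTV-PyMT model, in which the polyoma middle T antigen drives mammary tumors, was compared over 10 groups of 2 libraries from 2 independent experiments. The first set held the mesenchymal clones M1, M2 and M3, set against Py2T LT, which are Py2T cells kept for more than 10 days in TGF-beta (TGFb1, 2 ng/ml). The second set held clone M3 with 1 of 3 shRNA constructs, named shTet2, shMbd3 and shControl. Each was profiled after 72 hours of 2 µM CI994, a benzamide inhibitor of class I histone deacetylases, and without it. The labels describe M1, M2 and M3 as stable mesenchymal clones, so each clone stands for 1 isolate. Whether TGF-beta was still given to the clones is not stated, nor which shRNA sequences or vectors were used. Tet2 oxidizes methylated cytosine in DNA, while Mbd3 belongs to NuRD, a chromatin remodeler with histone deacetylase subunits.

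Collagens are triple helices of alpha chains. Fibrillar chains (types I, III, V and XI) build the fibrils of connective tissue, type IV chains form the sheet-like network of basement membranes, and type VI chains form beaded microfibrils around cells. In the endoplasmic reticulum prolines and lysines of the chains are hydroxylated and the chaperone Hsp47 (Serpinh1) binds the folded helix, and after secretion the propeptides are cut off and lysyl oxidases cross-link the molecules. Carcinoma cells that undergo epithelial-mesenchymal transition are known for changing which of these proteins they make.

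The 4 type IV chain genes among the 37 lie in 2 head-to-head pairs, which moved in opposite directions between the clones and Py2T LT and are therefore shown first. By the starts that RefSeq's promoter windows use, Col4a1 and Col4a2 begin 21 bases apart on chromosome 8 and are read in opposite directions, so that their windows from 250 bases before to 50 bases after the start overlap by 78 bases. Col4a5 and Col4a6 start 1343 bases apart on the X chromosome, also in opposite directions. The windows below come from RefSeq (GRCm38.p6) and run from 5′ to 3′ on the strand of each gene, with capitals marking CCAAT or ATTGG and GGGCGG or CCGCCC, the boxes to which NF-Y and Sp1-type factors are known to bind.
Col4a1 (chr8:11312777-11313076, minus strand): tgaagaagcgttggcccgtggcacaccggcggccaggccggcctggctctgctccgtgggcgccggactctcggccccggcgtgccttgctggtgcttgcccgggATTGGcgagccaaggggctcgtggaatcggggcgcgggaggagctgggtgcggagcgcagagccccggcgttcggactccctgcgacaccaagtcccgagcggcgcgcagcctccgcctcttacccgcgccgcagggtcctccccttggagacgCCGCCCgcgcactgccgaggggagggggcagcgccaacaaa
Col4a2 (chr8:11312555-11312854, plus strand): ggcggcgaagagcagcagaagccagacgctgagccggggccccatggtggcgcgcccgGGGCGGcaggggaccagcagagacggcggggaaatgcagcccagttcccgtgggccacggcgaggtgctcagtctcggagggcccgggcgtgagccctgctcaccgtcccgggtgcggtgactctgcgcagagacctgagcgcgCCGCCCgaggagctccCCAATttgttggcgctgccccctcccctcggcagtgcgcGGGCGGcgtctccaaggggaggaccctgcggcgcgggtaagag
Col4a5 (chrX:141475169-141475468, plus strand): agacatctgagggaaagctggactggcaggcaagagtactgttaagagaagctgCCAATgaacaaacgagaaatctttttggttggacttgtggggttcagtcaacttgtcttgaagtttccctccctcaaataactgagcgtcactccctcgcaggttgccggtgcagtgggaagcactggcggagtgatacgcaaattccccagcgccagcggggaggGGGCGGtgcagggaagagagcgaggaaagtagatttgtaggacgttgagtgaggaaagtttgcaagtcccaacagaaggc
Col4a6 (chrX:141474027-141474326, minus strand): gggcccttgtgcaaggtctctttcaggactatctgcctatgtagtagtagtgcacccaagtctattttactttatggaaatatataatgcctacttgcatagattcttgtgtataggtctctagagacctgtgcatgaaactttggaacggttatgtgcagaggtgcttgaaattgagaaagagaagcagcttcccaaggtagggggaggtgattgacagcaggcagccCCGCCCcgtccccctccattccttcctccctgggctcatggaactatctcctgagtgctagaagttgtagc

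The windows of the pair on chromosome 8 were rich in CpG dinucleotides, with 37 in Col4a1 and 33 in Col4a2, against 11 in Col4a5 and 3 in Col4a6. A window was found for 28 of the 37 genes, with a median of 16 CpG per window, against 7 over the 27025 genes with one; where a gene had several windows, the first listed was counted. GGGCGG on either strand stood in 78.6% of the 28 windows and in 35.9% of all windows, and CCAAT stood in 42.9% and 37.9% of them. The other motifs searched on both strands were TATAAA (17.9% against 14.2%), CACCTG (14.3% against 20.0%), TGANTCA (3.57% against 7.93%), ACGTG (21.4% against 19.7%) and CAGAC (46.4% against 49.7%), given in each case for these genes and then for all windows. No motif contains another, partial overlaps were not removed, and a match describes letters in the window, not binding.

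Before the comparisons, the libraries themselves need a description. The 12 libraries of the shRNA set held 16086082 to 24977595 reads each, and 3 reads, taken as the floor of detection, came to 0.120 to 0.186 reads scaled to library size only (CPM); such floors cover counting error only. The 8 clone and Py2T LT libraries were given as reads scaled to gene length and library size (RPKM), whose depth is unknown. Tet2 fell in shTet2 cells, to 8.41 and 7.97 CPM, against 15.2 and 13.9 CPM in shControl cells (log2 change -0.76, adjusted p = 0.0176 by limma). Mbd3 stood at 22.1 and 27.7 CPM in shMbd3 cells, against 66.5 CPM in shControl replicate 2 and 5.40 CPM in the library labelled shControl replicate 1. Mbd3 therefore did not pass as lower in shMbd3 cells (log2 change 0.29, adjusted p = 0.794), nor under CI994, where it had 16.6 and 21.9 CPM, against 53.6 and 67.7 CPM in shControl cells (-1.67, adjusted p = 0.196). These CI994-treated groups did not overlap, but the standard error of 0.81 was drawn from all 12 libraries, the untreated shControl replicate 1 included. Tet2 did not pass under CI994 either (-0.47, adjusted p = 0.124). The library called shControl replicate 1 here by its label goes against its label in this gene, and against replicate 2 its genes in the top GC decile were lower by 1.77 on the log2 scale than those in the bottom decile (-0.389 to 0.0137 within the other 5 groups). Its part was measured by leaving it out, and the calls that were lost, gained or turned without it are named below for the comparisons with untreated shControl cells. Without it more of the tested collagen chain and processing genes passed in every comparison of this set. Leaving out shControl replicate 2 raised these counts as well. All 12 libraries share 1 estimate of spread in these comparisons. Over all genes tested, the count for CI994 in shControl cells fell without shControl replicate 1, and the counts of the other comparisons rose. Of the marker genes, the epithelial keratin genes Krt8 and Krt18 and the mesenchymal Vim were high in every library, while the fibroblast markers Thy1 and Dpt were listed at 0 in all 20. The 4 endothelial markers summed to at most 1.12 CPM or 1.44 RPKM and the 4 leukocyte markers to at most 16.6 CPM or 3.18 RPKM, with Ptprc at most 0.378 CPM. In these bulk samples, fewer cells that make a transcript and less transcript per cell cannot be told apart.

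Clones M1, M2 and M3 carried far less RNA for fibril-forming and type IV alpha1 and alpha2 chains than Py2T LT, and more for the alpha5 and alpha6 chains of type IV and for type VI. Of the 37 genes, 30 reached 1 RPKM in at least 2 libraries and were tested. In the mean of the 3 clones, 10 of them were higher and 18 lower than in Py2T LT at an adjusted p under 0.05, and 2 did not pass. Across all 11717 genes tested, 65.1% passed in either direction, 32.1% higher and 33% lower, so that calls were common throughout. The median log2 change was -0.76 for the 30 genes and -0.01 for all genes tested. Of the 30, 7 passed the filter only through Py2T LT (Col1a1, Col1a2, Col5a1, Col4a1, Col4a2, Loxl1 and Loxl2) and 3 only through the clones (Col4a6, Col6a1 and Col6a3), and Col5a3 passed through Py2T LT and 1 M2 library. These 11 had to differ, so their levels and changes are given as a description with no p. Among the other 19 genes 7 were higher and 10 lower, with a median log2 change of -0.40. Outside the 11, the calls of Col4a5, Col18a1, Col7a1, Col8a1, Col12a1, Loxl3 and Loxl4 held in all 8 fits without 1 library. So did those of Plod2, Plod3, P4ha1, P4ha2, P3h1, Serpinh1, Bmp1 and Sparc. Of the 5 mesenchymal markers Cdh2, Prrx1 and Twist1 were higher in the clones (log2 changes 4.27, 2.04 and 1.89) and Vim and Zeb1 lower (-1.71 and -1.30), and their sum was 489 to 715 RPKM, against 1428 and 1444 RPKM in Py2T LT. Of the 5 epithelial markers Epcam, Cldn3 and Krt18 were higher and none lower, with sums of 1366 to 2002 RPKM in the clones, against 1170 and 1208 RPKM in Py2T LT. The part of these markers in the changes was not tested. Another 7 (Col3a1, Col5a2, Col11a1, Col6a2, Col17a1, Lox and P4ha3) stayed below 1 RPKM, at most 0.641 RPKM in any library.

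Among the basement membrane chains, Col4a1 and Col4a2, whose products form the ubiquitous alpha1-alpha1-alpha2 network, were all but absent from the clones. Col4a1 had between 0 and 0.0249 RPKM in the 6 clone libraries (median 0.00878), against 65.0 and 58.5 RPKM in Py2T LT. Col4a2 had between 0 and 0.0342 RPKM in the clones (median 0.0183), against 39.1 and 36.5 RPKM in Py2T LT. No clone library came near Py2T LT in either gene, and on the log2(RPKM + 0.5) scale, which understates changes of low genes, the changes were -6.96 ± 0.10 and -6.24 ± 0.10 (SE, limma). The whole gene spans of this pair in RefSeq's gene table, where Col4a1 reaches further upstream than the start used for its window, overlap by 85 bases on opposite strands, so a small part of either count could belong to its partner, because the strand setting of the counting is not given in the sources used here.

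The other pair ran the opposite way. Col4a5, the alpha5 chain found with alpha6 in some epithelial and smooth muscle basement membranes, had 14.7 to 22.7 RPKM in the clones (median 18.7), against 1.95 and 2.55 RPKM in Py2T LT. Col4a6 had 1.42 to 2.45 RPKM in the clones (median 2.00), against 0 and 0.00840 RPKM in Py2T LT. The groups did not overlap in either gene, with log2 changes of 2.78 ± 0.12 for Col4a5 (adjusted p = 1.91e-07, limma) and 2.30 ± 0.12 for Col4a6. Col4a1 and Col4a2 together made up at most 0.236% of the RPKM of the 4 type IV chains in any clone library, against 98.2% and 97.4% in the Py2T LT libraries. The alpha5 and alpha6 chains added up to 16.8 to 25.0 RPKM in the clones, against 104 and 94.95 RPKM for alpha1 and alpha2 in Py2T LT. Col18a1, whose product is a basement membrane collagen and the source of endostatin, was the most abundant chain throughout, at 151.9 to 184.5 RPKM in the clones and 127 and 103 RPKM in Py2T LT (log2 change 0.56 ± 0.10, adjusted p = 0.00126).

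**Figure D1:**
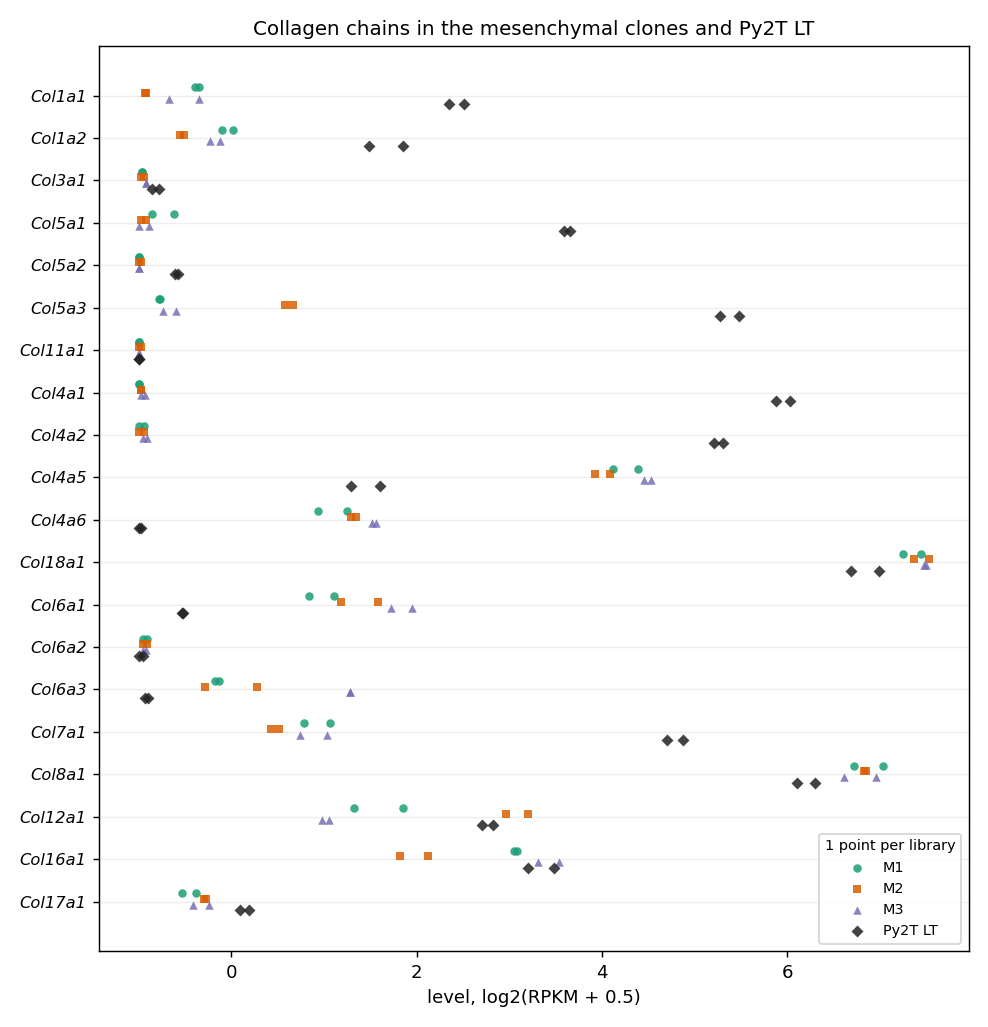
Levels of the 20 collagen chains as log2(RPKM + 0.5), with 1 point for each library of M1, M2, M3 and Py2T LT and 1 row per gene. Col4a1 and Col4a2 lie at the floor in all 6 clone libraries and at 36.5 to 65.0 RPKM in Py2T LT, while Col4a5 and Col4a6 show the reverse order.

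All 4 fibrillar chains that were tested were lower in the clones, and all 4 were tested through their Py2T LT levels. Together the 7 fibrillar chains added up to 0.713 to 1.36 RPKM in the clones, against 64.0 and 57.6 RPKM in Py2T LT. Col5a3 had 0.0813 to 1.09 RPKM in the clones (median 0.132), against 44.2 and 38.1 RPKM in Py2T LT (log2 change -5.67 ± 0.11). Most of the fibrillar sum in Py2T LT thus came from type V, which co-assembles with type I and controls fibril width. Col5a1 had at most 0.152 RPKM in the clones, against 12.1 and 11.6 RPKM in Py2T LT (log2 change -4.52 ± 0.11). The type I chains were the less abundant ones in Py2T LT: Col1a1 had 0.0258 to 0.286 RPKM in the clones, against 5.21 and 4.59 RPKM in Py2T LT (-3.06 ± 0.12), and Col1a2 had 0.183 to 0.510 RPKM, against 2.31 and 3.11 RPKM (-1.94 ± 0.13). Each of these 4 genes was lower in every clone library than in both Py2T LT libraries.

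Outside the fibrils, Col7a1, the anchoring fibril chain that ties basement membrane to stroma, fell to 0.843 to 1.60 RPKM in the clones, against 28.9 and 25.6 RPKM in Py2T LT (log2 change -4.06 ± 0.13, adjusted p = 3.30e-08). The type VI chains Col6a1 and Col6a3 were higher in the clones, which alone brought them past the filter. Col6a1 had 1.29 to 3.37 RPKM in the clones (median 2.13), against 0.190 and 0.197 RPKM in Py2T LT (1.91 ± 0.14). Col6a3 had 0.324 to 1.94 RPKM in the clones (median 0.566), against 0.0376 and 0.0258 RPKM in Py2T LT. Its partner Col6a2, which is needed with both for the usual heterotrimer, was listed at no more than 0.0332 RPKM in any of the 8 libraries. Col8a1, a short-chain network collagen, rose to 97.5 to 130.3 RPKM in the clones, against 68.4 and 78.4 RPKM in Py2T LT (0.60 ± 0.13, adjusted p = 0.00276). Summed over the 20 chains the clones had 311 to 345 RPKM and Py2T LT 413 and 377 RPKM, and Col18a1 with Col8a1 held most of the clone sum: Col18a1 alone took 47.4% to 56.0% in the clones, against 30.8% and 27.2% in Py2T LT.

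Among the cross-linking enzymes, levels of Loxl1 and Loxl2 were lower in the clones and Loxl3 and Loxl4 rose. Loxl2, a lysyl oxidase that acts on type IV collagen, had at most 0.0117 RPKM in the clones and was listed at 0 in both M1 libraries, against 7.10 and 7.83 RPKM in Py2T LT (log2 change -4.00 ± 0.10). Loxl3 rose to 29.3 to 43.0 RPKM in the clones, against 4.10 and 4.71 RPKM in Py2T LT (2.83 ± 0.091, adjusted p = 2.82e-08), and Loxl4 to 28.9 to 40.3 RPKM, against 9.77 and 9.61 RPKM (1.68 ± 0.092, adjusted p = 7.73e-07). Loxl1, known for elastic fibers, had 0.236 to 0.612 RPKM in the clones, against 1.73 and 1.51 RPKM in Py2T LT (-1.33 ± 0.16); like Loxl2 it was tested only through Py2T LT. Loxl3 and Loxl4 together held 99.2% to 99.6% of the RPKM of the 5 lysyl oxidases in the clones, against 60.8% and 60.4% in Py2T LT, while Lox itself stayed at or below 0.118 RPKM in all 8 libraries.

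**Figure D2:**
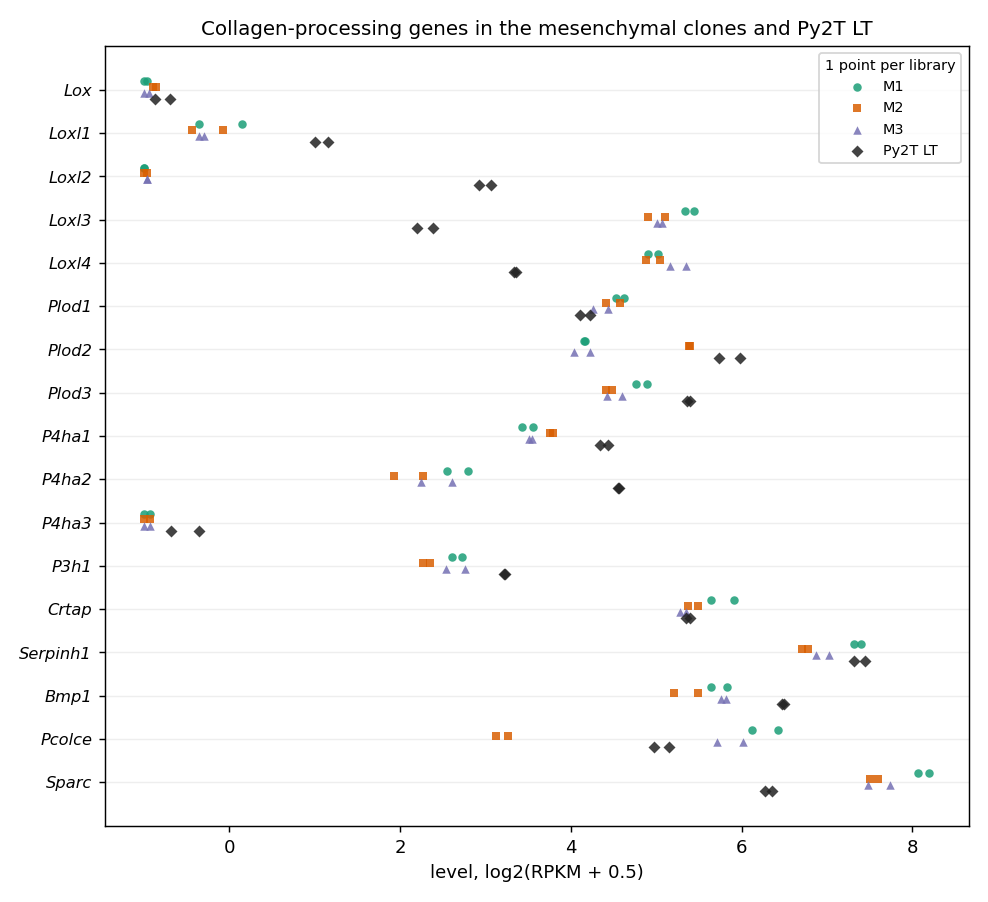
Levels of the 17 collagen-processing genes as log2(RPKM + 0.5), with 1 point per library of M1, M2, M3 and Py2T LT. Loxl2 is at the floor in the clones and at 7.10 and 7.83 RPKM in Py2T LT, Loxl3, Loxl4 and Sparc are higher in all clone libraries, and Pcolce separates M2 from the other clones.

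Most of the enzymes of the endoplasmic reticulum were lower in the clones, by smaller steps. P4ha2, a catalytic subunit of collagen prolyl 4-hydroxylase, fell to 3.31 to 6.44 RPKM in the clones, against 23.2 and 23.0 RPKM in Py2T LT (log2 change -2.19 ± 0.14, adjusted p = 1.74e-06). The main catalytic subunit gene P4ha1 fell less, to 10.2 to 13.4 RPKM, against 21.0 and 19.7 RPKM (-0.82 ± 0.079). P3h1, a prolyl 3-hydroxylase, changed by -0.71 ± 0.099, while its complex partner Crtap did not pass (0.10 ± 0.086, adjusted p = 0.33). Of the lysyl hydroxylases, Plod2, which modifies telopeptide lysines, changed by -1.33 ± 0.092, Plod3 by -0.82 ± 0.079 and Plod1 by 0.28 ± 0.088; the call of Plod1 was lost when either Py2T LT library was left out (adjusted p = 0.0569 and 0.173), or M2 replicate 1. Serpinh1 changed by -0.40 ± 0.079 in the mean of the clones, but M1 (167.8 and 158.2 RPKM) overlapped Py2T LT (173.6 and 159.2 RPKM). It was lower in M2 (109 and 103.8 RPKM) and M3 (116.1 and 129.5 RPKM). Bmp1, the procollagen C-proteinase, changed by -0.89 ± 0.092. Sparc, a secreted collagen-binding protein, rose to 178.7 to 293.0 RPKM in the clones, against 76.8 and 81.2 RPKM in Py2T LT (1.42 ± 0.088, adjusted p = 1.70e-06). Without 1 of the Py2T LT libraries 19 or 20 of the genes passed in place of 28, because the 7 that passed the filter only through Py2T LT were then not tested; Col16a1, lower in the mean of the clones by -0.55, also missed the threshold without Py2T LT replicate 1 (adjusted p = 0.0686).

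By promoter window, the 12 genes that fell in the clones and had a window carried 12 to 37 CpG (median 22), and the 9 that rose carried 3 to 32 (median 11). These ranges overlap, the windows of Col4a1 and Col4a2 share bases, and the values are a description only.

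The clones did not share every change. M1, M2 and M3 set singly against Py2T LT each moved nearly all of the 30 genes. M1 had 12 higher and 16 lower (30.5% and 30.5% of all genes, 61% in either direction), M2 had 10 higher and 18 lower (28.1% and 29.4%, 57.5% in all), and M3 had 10 higher and 17 lower (29.2% and 30.4%, 59.6% in all). In these counts 8 genes for M1, 8 for M2 and 9 for M3 had at most 1 library at 1 RPKM outside 1 side of the comparison. Their direction was set by the filter. Among the others M1 had 12 higher and 8 lower, M2 had 10 and 10, and M3 had 9 and 9 (median log2 changes 0.36, 0.16 and 0.06). Between clones fewer genes differed: M1 had 1 gene higher and 2 lower than M3 (2% and 2.84% of all genes, 4.84% in all), M2 had 3 higher and 9 lower than M1 (10.6% and 12.4%, 23% in all), and M2 had 3 higher and 4 lower than M3 (10.1% and 10.2%, 20.2% in all). Without Col6a3, which passed the filter only through M3, 1 gene was lower than M3 in M1 and 3 in M2. Against either clone, the calls of Col5a3, Col12a1, Col16a1, Plod2 and Pcolce in M2 held in each of the 8 fits without 1 library. Pcolce, which enhances the C-proteinase, had 9.07 and 8.19 RPKM in M2, against 85.2 and 69.2 RPKM in M1, 52.0 and 64.5 RPKM in M3 and 35.0 and 30.9 RPKM in Py2T LT. The M2 libraries lay below all 6 others, and the log2 change of M2 was -3.06 ± 0.14 against M1 and -2.68 ± 0.14 against M3 (limma, adjusted p = 7.71e-06 and 1.12e-05). Because M1 rose (1.17) and M2 fell (-1.90) against Py2T LT, the mean over the clones was near 0 for this gene (0.02).

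Other genes set M2 apart as well. Plod2 had 41.7 and 41.2 RPKM in M2, against 17.5 and 17.3 RPKM in M1 and 18.1 and 16.0 RPKM in M3 (log2 changes 1.25 ± 0.11 and 1.26 ± 0.11). Col12a1, a fibril-associated chain, had 7.32 and 8.71 RPKM in M2, against 2.00 and 3.13 RPKM in M1 and 1.47 and 1.58 RPKM in M3, so that M2 alone did not differ from the 6.56 and 6.03 RPKM of Py2T LT at this threshold (adjusted p = 0.211). Both genes were higher in each M2 library than in any library of M1 or M3. Col5a3 was likewise higher in M2 (1.09 and 1.00 RPKM) than in M1 and M3 (at most 0.163 RPKM), and Col16a1, another fibril-associated chain, was lower (3.86 and 3.04 RPKM, against 7.79 to 11.1 RPKM). The Col16a1 levels of M3 (9.42 and 11.1 RPKM) overlapped those of Py2T LT (10.7 and 8.73 RPKM). Between M1 and M3, Col6a3 was lower in M1 (0.388 and 0.416 RPKM, against 1.94 and 1.93 RPKM, log2 change -1.44 ± 0.18), the only libraries that brought it past the filter being those of M3, Col6a1 was lower by -0.88 and Sparc higher by 0.50. None of these 3 calls held in every fit without 1 library; leaving out either M3 library ended them all, and leaving out M1 replicate 2 gave 9 calls.

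In the M3 shRNA cells, 29 of the 37 genes reached 0.5 CPM in at least 2 libraries, 21 of them in all 12 and 8 in some. The other 8 (Col5a2, Col5a3, Col11a1, Col4a1, Col4a2, Lox, Loxl2 and P4ha3) stayed at or below 0.671 CPM, so Col4a1, Col4a2, Col5a3 and Loxl2, all lower in the clones than in Py2T LT, remained near the floor under every shRNA, with CI994 and without. CPM are not divided by gene length, and levels are compared here only within a gene. shTet2 cells were lower than shControl cells in the type VI chains, Pcolce and Loxl3, and higher in Col8a1, Loxl4, P4ha2 and Col7a1. Of the 29 genes 5 were higher and 8 lower, beside 10.5% and 12.7% of the 12808 genes tested (23.2% in all), with medians of 0.07 for the 29 genes and 0.02 for all. In shMbd3 cells 9 were higher and 5 lower, beside 15.6% and 16.6% of all genes (32.1% in all; medians 0.24 and 0.01). Both knockdowns were set against the same shControl libraries. Col6a3 reached 0.5 CPM only in shControl libraries, treated or not, so its calls, where listed, were set by the filter. Without it 5 genes were higher and 7 lower in shTet2 cells, and 9 were higher and 4 lower in shMbd3 cells. Without shControl replicate 1 the counts were 7 higher and 10 lower for shTet2 and 11 higher and 7 lower for shMbd3. Gained without it were, for shTet2, Col4a5 (-0.78), Plod2 (0.98), P4ha1 (0.69), P3h1 (-0.64), Col16a1 and Col18a1, and for shMbd3 Col4a6 (-0.77), Col12a1 (0.85), Plod2 (0.69), Col16a1 and Pcolce. In fits of the 2 groups alone 1 of the 29 genes passed in each knockdown. In the 12 fits that left out 1 library each, 9 of the 13 shTet2 calls (Col4a6, Col6a1, Col6a3, Col8a1, Col17a1, Loxl3, Loxl4, P4ha2 and Pcolce) and 8 of the 14 shMbd3 calls (Col1a2, Col6a1, Col7a1, Col8a1, Loxl4, P4ha2, Serpinh1 and Sparc) held every time.

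RNA of the type VI microfibril chains was lower in both knockdowns. Col6a1 had 0.614 and 0.847 CPM in shTet2 cells and 0.125 and 0.268 CPM in shMbd3 cells, against 7.83 and 16.4 CPM in shControl cells. Neither knockdown overlapped shControl, and the log2(CPM + 0.5) changes were -3.27 ± 0.43 (adjusted p = 0.000798) and -4.13 ± 0.43 (adjusted p = 0.000203, limma). Under CI994 the same gene had 4.73 and 5.90 CPM in shTet2 cells and 0.841 and 2.92 CPM in shMbd3 cells, against 15.9 and 23.6 CPM in shControl cells, a comparison that does not use the untreated controls (-1.79 ± 0.43 and -3.24 ± 0.43). Col6a3 was at 0 in both shTet2 libraries and at 0 and 0.0446 CPM in shMbd3 cells, against 0.503 and 0.575 CPM in shControl cells, at least 3.70-fold lower in shTet2 cells by a floor of 3 reads per library. Col6a2 and Col6a3 reached 0.5 CPM only in shControl cells, so that both were tested through the group where they were high. Col6a2 was at 0 in all 8 knockdown libraries, treated or not, against 0.137 and 0.240 CPM in untreated and 0.561 and 0.604 CPM in CI994-treated shControl cells. That made it at least 4.46-fold lower in shTet2 and at least 3.72-fold lower in shMbd3 cells under CI994, and its calls in untreated shTet2 and shMbd3 cells (-0.46 each) were lost without either shControl library, at -0.56 each without replicate 1 (adjusted p = 0.0764 and 0.0740) and -0.37 each without replicate 2 (adjusted p = 0.167 and 0.161).

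Pcolce had 4.06 and 4.48 CPM in shTet2 cells, against 17.2 and 51.3 CPM in shControl cells (log2 change -2.64 ± 0.36, adjusted p = 0.00102; -3.36 without shControl replicate 1). In shMbd3 cells it had 14.6 and 17.8 CPM, which overlapped the low shControl library and did not pass (-0.93, adjusted p = 0.0784), but passed without that library (-1.64, adjusted p = 2.37e-05). Under CI994, where the 2 shControl libraries had 41.5 and 49.7 CPM, both knockdowns were lower, with 4.86 and 4.61 CPM in shTet2 cells and 13.7 and 14.9 CPM in shMbd3 cells (-3.14 and -1.67). Loxl3 followed the same order, with 17.2 and 20.5 CPM in shTet2 cells and 29.5 and 35.6 CPM in shMbd3 cells, against 41.9 and 91.0 CPM in shControl cells (-1.66 and -0.98; -2.16 and -1.47 without shControl replicate 1). Under CI994 its log2 changes were -2.09 ± 0.27 and -1.04 ± 0.27. Both genes were higher in clone M3 than in Py2T LT (log2 changes 0.78 and 2.73 on the RPKM scale). The untreated shMbd3 call of Loxl3 was lost when either shMbd3 library was left out.

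**Figure D3:**
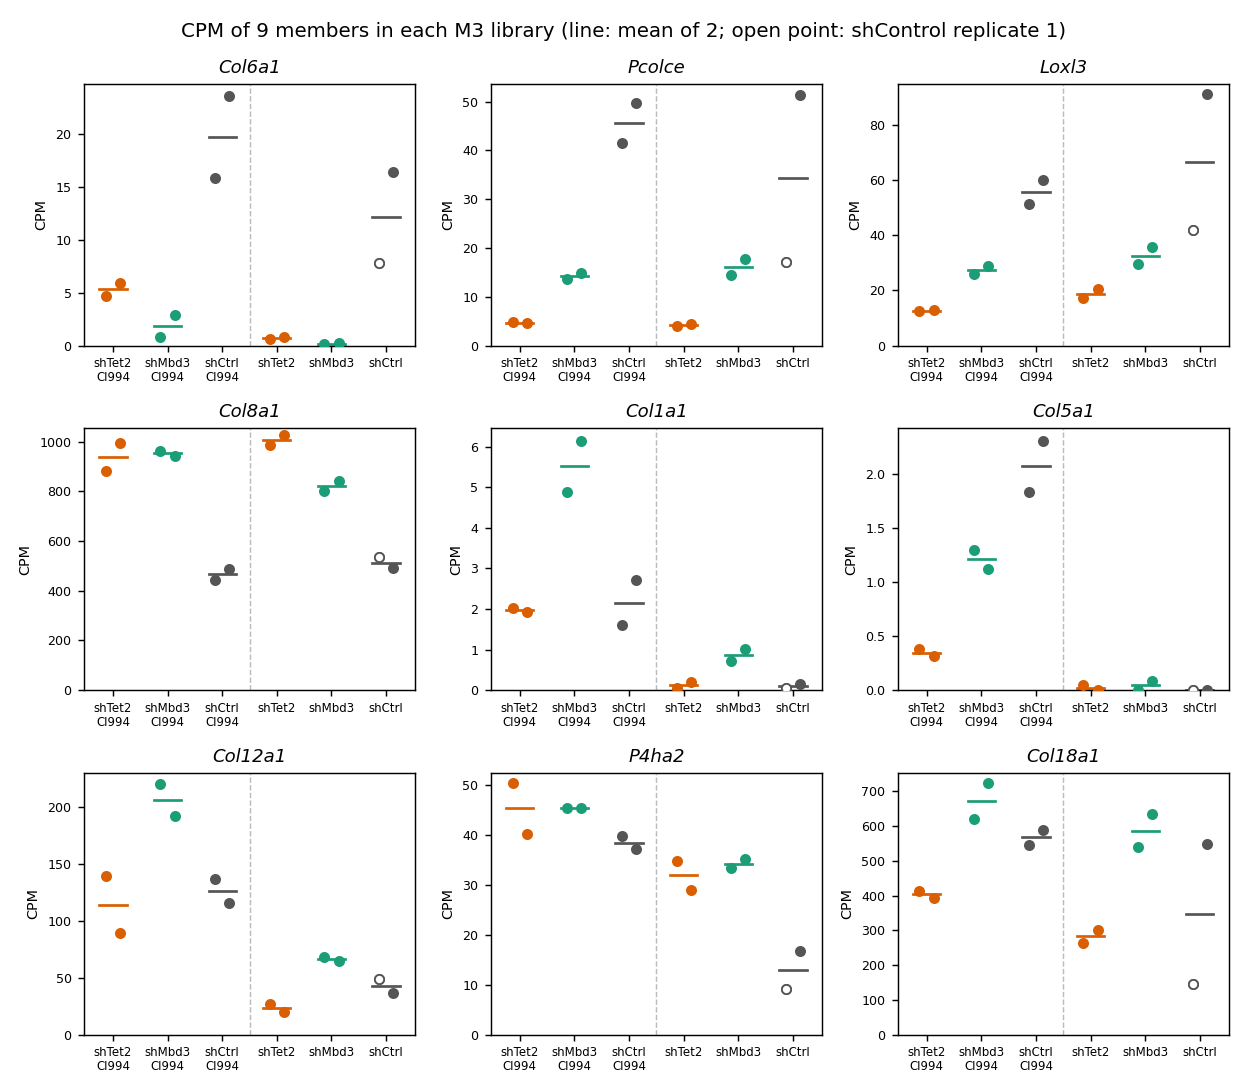
CPM of 9 genes in each of the 12 M3 shRNA libraries, with CI994 left of the dashed line and without it to the right; short lines are means of 2 libraries, and the open point is the library labelled shControl replicate 1. Col6a1, Pcolce and Loxl3 are lower in the knockdowns, Col8a1 is higher in them, and Col1a1, Col5a1 and Col12a1 are higher with CI994.

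Several chains and enzymes rose instead. Col8a1 had 989 and 1026 CPM in shTet2 cells and 800.1 and 844 CPM in shMbd3 cells, against 534 and 490.1 CPM in shControl cells (log2 changes 1.01 ± 0.11 and 0.62 ± 0.11, adjusted p = 0.000277 and 0.00362). Under CI994 it rose by 0.99 and 1.00, and neither knockdown overlapped shControl in either condition. Loxl4 had 306.5 and 286 CPM in shTet2 cells and 262 and 259 CPM in shMbd3 cells, against 145.5 and 147.7 CPM in shControl cells (1.04 ± 0.10 and 0.77 ± 0.10). P4ha2 rose by 1.35 and 1.37, to 34.8 and 29.1 CPM in shTet2 cells and 33.4 and 35.2 CPM in shMbd3 cells, against 9.20 and 16.8 CPM in shControl cells, but under CI994 it differed from shControl by no more than 0.21 and did not pass. Col7a1 rose by 1.80 and 1.87, and by 1.10 and 1.17 without shControl replicate 1. Under CI994 neither Col7a1 nor Col1a2 passed in either knockdown. Without CI994 Col1a2 rose by 0.93 in shTet2 and 1.27 in shMbd3 cells, whereas Col1a1 passed in shMbd3 cells only, with 0.710 and 1.03 CPM, against 0.0458 and 0.144 CPM in shControl cells (1.18 ± 0.24, adjusted p = 0.00675). Sparc and Serpinh1 also rose in shMbd3 cells, by 1.02 ± 0.13 and 0.78 ± 0.13, and did so again under CI994 (1.02 and 0.54).

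Under CI994 Col17a1, a hemidesmosomal transmembrane chain, did not pass in either knockdown. It had 0.592 and 0.358 CPM in shTet2 and 0.547 and 0.684 CPM in shMbd3 cells, against 0.280 and 0.453 CPM in shControl cells. Without CI994 it fell in both, to 0.283 and 0.199 CPM in shTet2 cells and 0.543 and 0.402 CPM in shMbd3 cells, against 0.961 and 1.39 CPM in shControl cells (-1.17 and -0.81). These untreated levels rest on 6 and 4, 13 and 9, and 21 and 29 reads. Col4a6 and Col12a1 fell in shTet2 cells (-1.20 and -0.82), but Col12a1 missed the threshold without shControl replicate 1 (-0.56, adjusted p = 0.0969). Col18a1 turned direction without that library. It had 263 and 302 CPM in shTet2 cells, against 145 and 547 CPM in shControl cells, a log2 change of 0.03 that turned to -0.86 (adjusted p = 0.000246) when the low library was left out. Col16a1, at 14.1 and 13.3 CPM in shTet2 and 16.4 and 17.2 CPM in shMbd3 cells, against 10.9 and 40.6 CPM in shControl cells, changed by -0.58 and -0.38 and did not pass, yet passed without it (-1.45 and -1.25). Under CI994 Col16a1 was lower in shMbd3 cells (-1.50, adjusted p = 0.0390) and not called in shTet2 cells (-0.76). Markers moved with both knockdowns. Of the 5 epithelial markers 4 were higher in shTet2 cells (not Krt8) and 3 in shMbd3 cells (not Krt8 or Krt18, which overlapped shControl), and they summed to 3332 and 3783 CPM in shTet2 cells and 2387 and 2458 CPM in shMbd3 cells, against 958 and 2473 CPM in shControl cells. Of the 5 mesenchymal markers Vim, Zeb1 and Prrx1 were lower in both and Twist1 in shMbd3 cells, while Cdh2 was higher in both (0.44 and 0.29), and they summed to 716 to 827 CPM in the 4 untreated knockdown libraries, against 2022 and 2034 CPM in shControl cells. The part of these markers in the changes was not tested. The 5 fibroblast markers, of which only Pdgfra, Pdgfrb and traces of Lum were detected, summed to 23.1 to 31.7 CPM in those knockdown libraries, against 45.4 and 83.2 CPM in shControl cells, which was likewise not tested.

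Set directly against each other, shTet2 and shMbd3 cells differed in 8 of the 29 genes, 2 higher and 6 lower in shTet2 cells, beside 9.49% and 9.6% of all genes (19.1% in all). Lower in shTet2 cells were Col1a1 (-1.10), Col12a1 (-1.40), Col4a5 (-0.69), Pcolce (-1.72), Serpinh1 (-0.53) and Sparc (-0.92), and higher were Col8a1 (0.38) and P4ha1 (0.77). Sparc had 442 and 366 CPM in shTet2 cells, against 841 and 782 CPM in shMbd3 cells, with no overlap (adjusted p = 0.00146). No control library enters this contrast, yet through the shared spread 3 were higher and 11 lower without shControl replicate 1, and only the call of Sparc held in every fit without 1 library. With both groups under CI994 again 2 were higher (Col6a1 and Loxl1) and 6 lower, beside 11% and 10.8% of all genes (21.8% in all). With CI994 throughout, shTet2 cells had 3 genes higher and 6 lower than shControl cells (6.55% and 9.24% of all genes, 15.8% in all) and shMbd3 cells had 5 higher and 8 lower (7.99% and 10.9%, 18.9% in all). Col6a2 passed the filter only through CI994-treated shControl cells, and without it these counts were 3 and 5, and 5 and 7. Col6a3 passed only through shControl libraries too, mostly untreated ones. The calls that held in every fit without 1 library were those of Col8a1, Loxl3 and Pcolce for shTet2 and of Col6a1, Col8a1 and Sparc for shMbd3. Those of Col6a3 in both and of Col5a1 in shTet2 cells held too, but the filter favoured their direction. Col5a1 reached 0.5 CPM only in CI994-treated shControl and shMbd3 libraries.

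**Figure D4:**
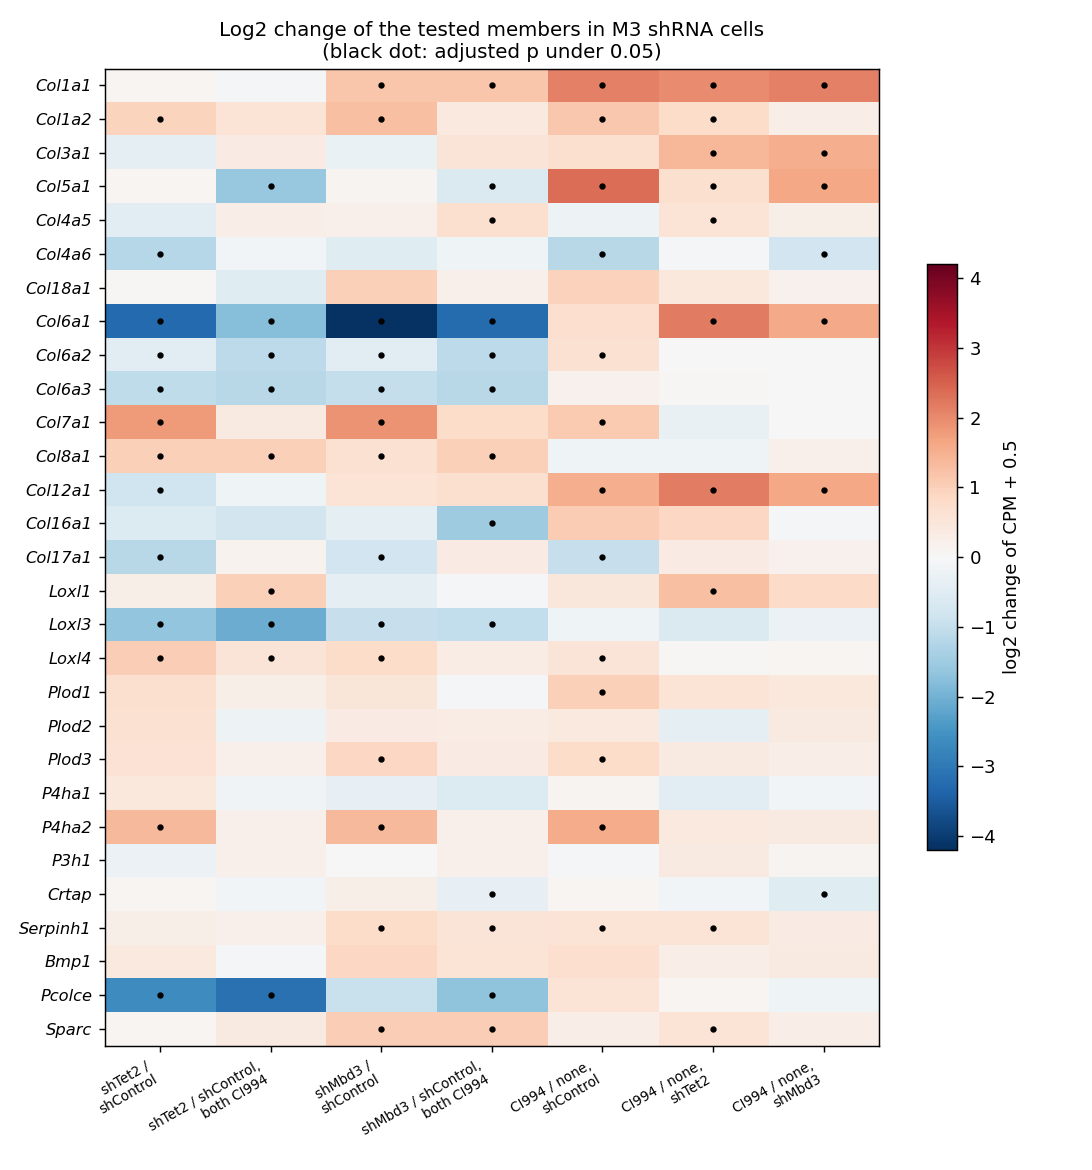
Log2(CPM + 0.5) changes of the 29 tested genes in 7 comparisons of the M3 shRNA cells, coloured from blue (lower) to red (higher) with a dot where the adjusted p was under 0.05. The type VI chains, Loxl3 and Pcolce are blue in the knockdown columns, and the fibrillar chains Col1a1 and Col5a1 are red in all 3 CI994 columns.

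RNA of the fibrillar chains Col1a1 and Col5a1 and of Col12a1 was higher with CI994 in all 3 shRNA lines. In shControl cells 11 of the 29 genes were higher and 2 lower after CI994, beside 18% and 15.5% of all genes (33.5% in all). Of the 11, Col5a1 and Col6a2 passed the filter only through CI994-treated libraries, so their direction was set by it. In shTet2 cells 10 were higher and 0 lower, beside 12.4% and 11.8% (24.2% in all), and in shMbd3 cells 5 were higher and 2 lower, beside 7.45% and 5.14% (12.6% in all). The higher genes of both these lines include Col3a1 and Col5a1, which reached 0.5 CPM only in CI994-treated libraries. Their direction was thus favoured by the filter, and the counts and medians include them. The medians of the 29 genes were 0.59, 0.39 and 0.24 in that order of lines, while those of all genes tested lay between -0.003 and 0.03. In shTet2 cells 1 gene was lower at an unadjusted p under 0.05, and edgeR and DESeq2 on the recovered reads called 0 lower as well. The lean to higher was weaker with the GC trend removed. There 7 were higher and 6 lower in shControl cells, 5 and 3 in shTet2 cells, and 7 and 4 in shMbd3 cells. Over all genes tested that setting gave 2478 higher and 2178 lower, 2103 and 2001, and 1734 and 1571. Without shControl replicate 1 the counts were 11 higher and 4 lower, 16 higher and 3 lower, and 15 higher and 2 lower. The calls of Col1a1 and Col12a1 held in all 3 lines in every fit without 1 library, as did those of Col1a2, Col5a1 and P4ha2 in shControl cells and Col5a1 in shMbd3 cells, and no others. In a fit of shControl cells alone, with and without CI994, 0 of the 29 genes passed by limma, while 15 were at an unadjusted p under 0.05 in the fit of all 12 libraries and edgeR called 10 and DESeq2 12. Gained in shControl cells without shControl replicate 1 were Loxl3 (-0.68), Plod2 (0.78), Sparc (0.37) and Col4a5, and lost were Col6a2 (0.56, adjusted p = 0.081) and Col7a1.

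Markers moved with CI994 as well. The 5 fibroblast markers summed to 39.5 and 40.8 CPM in CI994-treated shTet2 cells, 51.3 and 56.6 CPM in shMbd3 cells and 75 and 90.4 CPM in shControl cells, against 23.1 and 24.8, 24.2 and 31.7, and 45.4 and 83.2 CPM without CI994. Pdgfra rose in all 3 lines (1.08, 1.55 and 0.78), Pdgfrb passed in none, and Thy1 and Dpt were at 0. The 4 leukocyte markers, mostly Cd68, summed to 7.01 to 16.6 CPM in the CI994-treated libraries, against 1.5 to 3.68 CPM in the untreated ones, with Ptprc at most 0.378 CPM in any. Of the 5 epithelial markers 1 rose in shTet2 cells, 0 in shMbd3 cells and 5 in shControl cells, and the mesenchymal Prrx1 fell in all 3 lines (-1.17, -1.10 and -1.85). The part of these markers in the changes with CI994 was not tested.

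Col1a1 had 2.03 and 1.92 CPM in CI994-treated shTet2 cells and 4.88 and 6.15 CPM in CI994-treated shMbd3 cells, against 0.0472 and 0.199 CPM and 0.710 and 1.03 CPM without CI994. In shControl cells it had 1.60 and 2.72 CPM with CI994, against 0.0458 and 0.144 CPM without. Treated and untreated libraries were apart in every line, and the log2 changes were 1.98, 2.12 and 2.13 (± 0.24 each), with adjusted p between 0.000633 and 0.000994. Col12a1 rose with CI994 by 2.16, 1.61 and 1.52 in shTet2, shMbd3 and shControl cells; in shControl cells it had 137 and 116 CPM with CI994, against 49.2 and 36.8 CPM without. Col3a1 rose in shTet2 cells (1.48 and 0.492 CPM, against 0 and 0.0498 CPM) and in shMbd3 cells (1.05 and 1.24 CPM, against 0.0835 and 0.0446 CPM), and did not pass in shControl cells (0.69, adjusted p = 0.0862). Col3a1 and Col5a1 reached 0.5 CPM only in CI994-treated libraries and were tested through them alone. Few reads stand behind Col1a1 and Col3a1: without CI994 Col1a1 had 1 to 4 reads in shTet2 and shControl libraries and 17 and 23 in shMbd3 libraries, and with CI994 it had 40 to 116.

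Col5a1 rose with CI994 in all 3 lines, by unequal amounts. It had 1.84 and 2.31 CPM in CI994-treated shControl cells and was at 0 in both untreated ones, at least 14.8-fold higher by the floor of 3 reads per library. In shMbd3 cells it had 1.30 and 1.12 CPM with CI994, against 0 and 0.0892 CPM without, and in shTet2 cells 0.380 and 0.313 CPM with CI994, against 0.0472 and 0 CPM without. The log2(CPM + 0.5) rise was 2.36 in shControl, 1.63 in shMbd3 and 0.69 in shTet2 cells. The difference between the rises in shTet2 and shControl cells, tested as an interaction, was -1.67 ± 0.23 (limma, adjusted p = 0.0212) and was the only one of the 29 to pass, beside 0.687% of all genes (0.273% lower and 0.414% higher); 10 were at an unadjusted p under 0.05. Col5a1 passed the filter only through CI994-treated shControl and shMbd3 libraries, where it was high. Its interaction call rested on few reads, 9 and 7 in CI994-treated shTet2 cells, against 46 and 46 in CI994-treated shControl cells. It was lost when any of the shTet2 or CI994-treated shControl libraries was left out (adjusted p of 0.0787 to 0.118), with a pseudocount of 0.1, in a fit of the groups compared alone and with the GC trend removed, and edgeR and DESeq2 did not make it on the recovered reads (adjusted p = 0.548 and 0.569); DESeq2 called P4ha2 instead (-1.10, adjusted p = 0.0491). For shMbd3 none of the 29 interactions passed in limma, edgeR or DESeq2 (0.0781% of all genes in limma, 0.039% in each direction), with 8 at an unadjusted p under 0.05. Without shControl replicate 1, 7 passed for shTet2 (Col5a1, Col4a5, Col4a6, Col17a1, Loxl4, Plod2 and P4ha2) and 1 for shMbd3 (Col4a5).

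Type VI and type IV chains moved with CI994 in some lines. Col6a1 rose in shTet2 cells by 2.19 ± 0.43 (adjusted p = 0.00769) and in shMbd3 cells by 1.61 (adjusted p = 0.0412), and in shControl cells its change of 0.71 did not pass (adjusted p = 0.203). The interactions of 1.48 and 0.89 did not pass either. Col4a6 had 4.52 and 5.73 CPM in CI994-treated shControl cells, against 9.52 and 14.8 CPM in untreated ones (-1.18, adjusted p = 0.00611), and it fell in shMbd3 cells (-0.82) while its change of -0.09 ± 0.22 in shTet2 cells did not pass. Col4a5, its head-to-head partner, rose in shTet2 cells (0.56, adjusted p = 0.0494) and did not pass in the other lines. Without shControl replicate 1 Col4a5 fell in shControl cells (-0.51, adjusted p = 0.0046).

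Of the processing genes, P4ha2 rose with CI994 in shControl cells, to 39.9 and 37.2 CPM, against 9.20 and 16.8 CPM without (1.56 ± 0.22, adjusted p = 0.00175), and its changes of 0.42 in shTet2 and 0.39 in shMbd3 cells did not pass. Serpinh1 rose in shTet2 cells (268 and 244 CPM, against 172.5 and 155 CPM, 0.57) and in shControl cells (219 and 216 CPM, against 120.0 and 166 CPM, 0.59). Loxl1 rose in shTet2 cells, to 2.45 and 1.79 CPM, against 0.472 and 0.648 CPM (1.26, adjusted p = 0.0128), did not pass in the other lines, and had an interaction of 0.77 that did not pass. Plod1 and Plod3 rose in shControl cells by 1.00 and 0.77 (0.47 and 0.28 without shControl replicate 1). Col7a1 also rose there (1.11), but its call was lost without that library (0.41, adjusted p = 0.0896). Crtap fell in shMbd3 cells (-0.51, adjusted p = 0.0149).

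**Figure D5:**
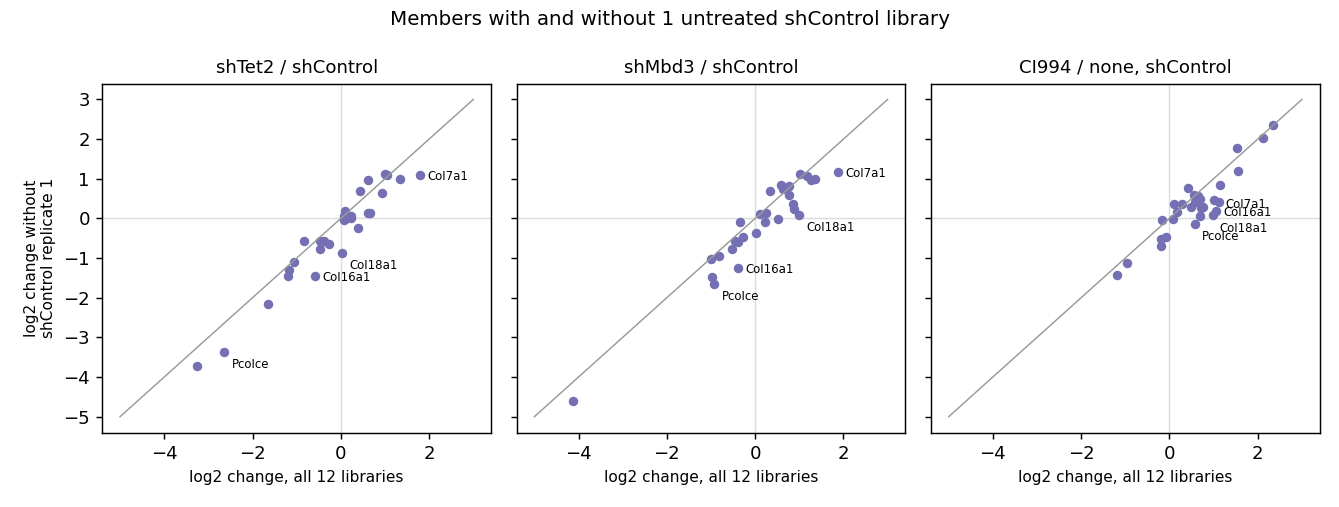
Log2 changes of the 29 genes in the 3 comparisons that use untreated shControl cells, with all 12 libraries on the x axis and without the library labelled shControl replicate 1 on the y axis; the line marks equal values, and genes that moved by more than 0.65 are named. In the shTet2 panel Pcolce lies at -2.64 on the x axis and -3.36 on the y axis, and Col18a1 at 0.03 and -0.86.

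Other genes of the pathway were read from 5 lists. Of 12 other genes of collagen modification in the endoplasmic reticulum, 10 were tested in the clones, with 2 higher and 5 lower than in Py2T LT; the share of all genes called was 65.1% (32.1% higher and 33% lower), and the counts of these lists are a description beside it. Col27a1, Creb3l1, Efemp2 and Mmp9 passed the filter only through Py2T LT and P3h2 only through the clones, so their values carry no p. Creb3l1, a transcription factor that drives collagen secretion genes, had at most 0.0726 RPKM in the clones, against 12.5 and 12.1 RPKM in Py2T LT (-4.61 ± 0.10), and P3h2, a prolyl 3-hydroxylase that acts on type IV collagen, had 1.87 to 7.66 RPKM, against 0.647 and 0.323 RPKM (2.25 ± 0.17). Of 15 genes of propeptide trimming and fibril assembly, 7 were tested, with 2 higher (Tgm2 and Adamts14) and 5 lower; Efemp2, which brings lysyl oxidase to elastic fibers, changed by -5.71 ± 0.14. All 11 genes of secretory export were tested, with 1 higher and 6 lower, Sec13 falling by 1.02 on the log2 scale. Of 13 receptor and turnover genes 7 were tested, with 5 lower, among them the gelatinase gene Mmp9 (-5.41) and the collagen receptor gene Itga2 (-4.00). Of the 24 other collagen chains only Col27a1 was tested, with at most 0.0238 RPKM in the clones, against 4.30 and 3.65 RPKM in Py2T LT. More genes of these lists than those named had at most 1 library at 1 RPKM outside 1 side of the comparison. Without all such genes, 7 endoplasmic reticulum genes remained, with 1 higher and 3 lower, and 4 propeptide and assembly genes, with 2 higher and 2 lower. Of the export genes 10 remained, with 1 higher and 6 lower, and of the receptor and turnover genes 5, with 0 higher and 4 lower.

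In the shRNA cells Fkbp14, a prolyl isomerase that helps type III and VI chains fold, fell to 1.46 and 1.15 CPM in shTet2 cells and 1.46 and 0.982 CPM in shMbd3 cells, against 10.0 and 6.90 CPM in shControl cells (-2.28 ± 0.27 and -2.42 ± 0.27, adjusted p = 0.000457 and 0.000318). Groups did not overlap, and it was lower under CI994 too (-1.15 and -1.22). Of the 8 endoplasmic reticulum genes tested, 3 were higher and 1 lower in shTet2 cells, and 1 was higher and 2 lower in shMbd3 cells. Among the other collagen chains, 8 of 24 were tested, with 2 higher and 1 lower in shTet2 cells and 1 higher and 1 lower in shMbd3 cells. Of the 8 chains, 2 had at most 1 library at 0.5 CPM outside untreated shControl cells. Without these, 2 were higher and 0 lower in shTet2 cells, and 1 was higher and 0 lower in shMbd3 cells. Col4a4, the alpha4 chain of type IV that assembles with alpha3 and alpha5, had 6.93 and 4.78 CPM in CI994-treated shTet2 cells and 3.83 and 3.05 CPM in CI994-treated shMbd3 cells, against 1.46 and 0.697 CPM and 0.918 and 1.16 CPM without CI994. In shControl cells it had 1.16 and 1.11 CPM with CI994, against 0 and 0.240 CPM without. It rose with CI994 in all 3 lines (1.98, 1.34 and 1.43), and Col4a3 rose in shTet2 cells (1.71) and did not pass in the other lines. Of the 11 export genes 1 was called in each knockdown, where 23.2% of all genes were called in shTet2 and 32.1% in shMbd3 cells. Of the 10 receptor and turnover genes tested, shTet2 cells had 1 higher and 1 lower and shMbd3 cells 3 higher and 2 lower, and of the 7 propeptide and assembly genes 1 was higher and 2 lower in shTet2 cells and 3 higher and 1 lower in shMbd3 cells. Without 1 assembly gene that reached 0.5 CPM only in untreated shControl cells, these last counts were 1 and 1, and 3 and 0. Postn, the matricellular protein periostin, had 1.25 and 1.34 CPM in shMbd3 cells, against 0.0915 and 0.0479 CPM in shControl cells (1.63 ± 0.17), and reached 0.5 CPM only in shMbd3 cells. Mmp13, a collagenase that cuts fibrillar collagen, had 199 and 239.5 CPM in CI994-treated shTet2 cells, 128 and 109.7 CPM in CI994-treated shMbd3 cells and 623 and 428 CPM in CI994-treated shControl cells, against 58.2 and 74.0, 12.5 and 15.4, and 40.3 and 34.9 CPM without CI994. It rose in all 3 lines, by 1.65, 3.04 and 3.73 ± 0.22.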

How the data were processed

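RNA was measured in 20 libraries, made per the labels with a stranded total-RNA kit. Alignment with STAR and the mm10 build are named in the submitters' processing notes; the counting tool and its strand setting are not given in the sources used here. The authors deposited RPKM for the 8 clone and Py2T LT libraries; reads per kilobase were not told apart from fragments. The authors deposited CPM for the 12 shRNA libraries, in which 100.0% of values were whole reads within 0.01 of a read; these recovered reads gave the depth, and on them edgeR called 2918 genes in shTet2 against shControl (limma 2973), 3970 in shMbd3 against shControl (4117), 4073 for CI994 in shControl (4290) and 38 and 0 for the 2 interactions (88 and 10). The 2 sets were never mixed. In the first set 7 columns repeated another library's values in every row and were read once. No column was left unmapped (0), and symbols were matched for 99.7% of rows of either set.

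Within each set, genes that reached 1 RPKM (first set) or 0.5 CPM (second set) in at least 2 libraries were fitted on log2(value / TMM factor + 0.5) with limma 3.58.1 (R 4.3.3; edgeR 4.0.16 for TMM), with all groups of the set in 1 fit, and p-values were adjusted by the Benjamini-Hochberg method over all genes tested (threshold 0.05). Changes are the first named group minus the second. The labels name 2 independent experiments, so p-values rest on 2 libraries a group. The 37 genes and the other lists were chosen with earlier results of these data known. All 37 could be named; from each other list, up to 2 higher and 2 lower genes per comparison, by smallest adjusted p, with a mean of at least 1 in the higher group (Col4a3 in other lines, and the per-library values, follow those names). GC content was known for 94.4% and 95.6% of the genes tested in the first and second set. Fits were tested on simulated data. DESeq2 1.42.0 and edgeR on recovered reads, other scalings, filters, pseudocounts, GC removal, a replicate block and leaving out libraries were alternatives. Dividing CPM or RPKM by a scaling factor leaves differences in RNA composition in place.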

Additional observations from a re-analysis of the deposited data

Results flagged for a closer look

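For the genes below, limma's test of the difference between the responses to CI994 in shTet2 and shControl cells passed with all 12 libraries, and neither call held in every alternative. Col5a1, a type V chain, had a log2 rise with CI994 that was smaller in shTet2 than in shControl cells (difference -1.67 ± 0.23, limma, adjusted p = 0.0212), with 2 of 2 treated shTet2 libraries below both treated shControl libraries. It reached 0.5 CPM only in CI994-treated shControl and shMbd3 libraries. The filter thus let Col5a1 in through a group where it was high, and the order of these libraries is a description only. Mmp13, a collagenase, rose in both, and its rise was smaller in shTet2 cells (difference -2.08 ± 0.30, adjusted p = 0.0227), again with both treated shTet2 libraries below both treated shControl libraries. The Col5a1 call was lost in 6 of the 12 fits without 1 library (difference -1.80 to -1.55, adjusted p of 0.00176 to 0.118), with a pseudocount of 0.1, with the GC trend removed, in a fit of the groups compared alone, and by edgeR and DESeq2 (adjusted p = 0.548 and 0.569). The Mmp13 call was lost in 10 of the 12 fits without 1 library (difference -2.39 to -1.80, adjusted p of 0.000545 to 0.127; it held without either untreated shControl library) and in a fit of the groups compared alone (adjusted p = 0.126), while edgeR and DESeq2 made it (adjusted p = 0.034 and 5.42e-07). The untreated shControl libraries enter both differences.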

How the results depend on the processing

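Counts here are numbers of the tested collagen chain and processing genes past an adjusted p of 0.05. Scaling by DESeq2 size factors or by library total, a pseudocount of 1 and DESeq2 on the recovered reads left every count of calls within 1.5 times; without the filter on low values M1 against M3 gave 1 call and the interactions for shTet2 and shMbd3 gave 3 and 1, and with a pseudocount of 0.1 or by edgeR on the recovered reads the shTet2 interaction gave 0. Fits of only the groups compared gave 1 call for M1 against M3, 6 for M2 against M1, 1 each for shTet2 and shMbd3 against shControl, 15 for shTet2 against shMbd3, 0 for CI994 in shControl cells, 18 in shTet2 and 14 in shMbd3 cells, 16 for shTet2 against shControl and 18 for shTet2 against shMbd3 under CI994, and 0 for the shTet2 interaction; for the mean of the clones all groups are compared, so this fit gives no value. With the GC trend removed there were 20 calls for shTet2 against shControl, 11 for CI994 in shMbd3 cells, 15 for shTet2 against shMbd3 under CI994 and 6 for the shTet2 interaction; with the replicate block as well these were 21, 11, 17 and 11, with 15 for shTet2 against shMbd3 and 2 for the shMbd3 interaction. With the GC trend removed and shControl replicate 1 left out, an alternative chosen after seeing the data, there were 17 and 18 calls for shTet2 and shMbd3 against shControl, 16 for shTet2 against shMbd3, 13, 13 and 17 for CI994 in shControl, shTet2 and shMbd3 cells, 15, 18 and 18 for shTet2 against shControl, shMbd3 against shControl and shTet2 against shMbd3 under CI994, and 8 and 3 for the interactions.

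Leaving out 1 library at a time gave 19 to 28 calls for the mean of the clones against Py2T LT, 17 to 28, 19 to 28 and 19 to 27 for M1, M2 and M3 singly, 0 to 9 for M1 against M3, 5 to 12 for M2 against M1 and 5 to 10 for M2 against M3. In the shRNA set it gave 9 to 17 for shTet2 and 9 to 20 for shMbd3 against shControl, 2 to 14 for shTet2 against shMbd3, 5 to 20, 3 to 19 and 3 to 17 for CI994 in shControl, shTet2 and shMbd3 cells, 5 to 17, 4 to 19 and 2 to 18 for shTet2 against shControl, shMbd3 against shControl and shTet2 against shMbd3 under CI994, and 0 to 16 and 0 to 15 for the interactions. The highest counts for the shRNA set came without 1 of the shControl libraries, and the lowest without 1 of the libraries compared, where the lone sample left is assumed to vary like the other groups.

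Directions turned as follows, and the cause was not tested. Col18a1 in shTet2 against shControl became -0.48 with the GC trend removed, with or without the replicate block, -0.86 without shControl replicate 1 (0.93 without replicate 2) and -0.75 with both. P3h1 in shMbd3 against shControl became -0.47 with the GC trend removed, block or not, and -0.44 when shControl replicate 1 was also left out. For CI994 in shControl cells Loxl4 became -0.052 and Crtap -0.54 with the GC trend removed, block or not. With the GC trend removed and shControl replicate 1 left out, Loxl4 for CI994 in shTet2 cells became -0.35 and Col18a1 for CI994 in shMbd3 cells -0.19. Col16a1 in shMbd3 against shControl became 0.48 without shControl replicate 2 (-1.25 without replicate 1).

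Replicate numbers were not taken as pairs: same-numbered libraries deviated together with correlations of 0.095 to 0.523 in 15 pairs of groups in the shRNA set (14 over 0.1) and -0.122 to 0.128 in 6 pairs in the other (1 over 0.1). With the replicate block alone the counts were 15 and 18 for shTet2 and shMbd3 against shControl, and no count moved by over 1.5 times. Precision is limited by 2 libraries a group, by few reads for the fibrillar and type VI chains in the shRNA set, and by the unknown depth of the RPKM set.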
